A study of Mus musculus with 20 samples.

Results

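The genes described here encode the nuclear subunits of the mitochondrial respiratory chain and ATP synthase, measured in mouse liver after siRNA against Eif3m, the m subunit of translation initiation factor eIF3. They were chosen by symbol: the Nduf series for complex I, Sdha to Sdhd for complex II, the Uqcr series and Cyc1 for complex III, Cox4 to Cox8 for complex IV and the Atp5 series for complex V. The rule found 83 of the 38784 symbols in the table, with 36 in complex I, 4 in complex II, 9 in complex III, 17 in complex IV and 17 in complex V. The symbol pattern also takes in Atp5s, which is not a subunit of the enzyme, and Atp5sl, known in human cells as an assembly factor of complex I, and both are counted under complex V. No mitochondrially encoded subunit is among them (0 genes).

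FVB/N mice, 6 to 8 weeks old at injection, received lipid nanoparticles holding siRNA through the tail vein, at 0.5 mg/kg with 1 injection in 5 days. The siRNA was against Eif3m or, in controls, a scrambled luciferase sequence. Livers were taken at day 9 (3 Eif3m siRNA and 3 control mice) and day 13 (2 Eif3m siRNA and 2 control mice), and each of the 10 livers gave an RNA-seq and a ribosome footprint library. The whole ground liver was used, so a value averages all of its cell types. KAPA mRNA capture was used for the day 9 RNA libraries and NeoPrep for those of day 13. Kit and day therefore cannot be told apart in RNA. ART-seq was used for footprints on both days. The livers of each day carry their own series of labels. An unlabelled run of libraries therefore cannot be told apart from day in either assay.

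Complexes I and II pass electrons from NADH and succinate to ubiquinone, complex III passes them to cytochrome c, and complex IV reduces oxygen. Complexes I, III and IV pump protons across the inner membrane, and complex V makes ATP from the gradient. Most subunits are made in the cytosol and imported, and in hepatocytes, which are rich in mitochondria, the chain supplies ATP for urea and glucose synthesis and reoxidises the NADH from fatty acid breakdown.

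Eif3m itself had log2 changes of -3.27 (SE 0.16) at day 9 and -4.01 (SE 0.21) at day 13 in RNA, and of -3.61 (SE 0.17) and -4.58 (SE 0.26) in footprints, with adjusted p values of 5.5e-07, 9.6e-07, 4.9e-11 and 1.7e-09. Total counts of RNA libraries were 34746050 to 39016524 in day 9 Eif3m livers and 27366965 to 37757684 in day 9 controls, 4964912 to 19834949 in day 13 Eif3m livers and 24311802 to 26401320 in day 13 controls. For footprints they were 4502229 to 6160993 in day 9 Eif3m livers and 7036106 to 7689829 in day 9 controls, 1635290 to 6519799 in day 13 Eif3m livers and 1974248 to 2124245 in day 13 controls. Levels are given as CPM, counts per 1000000 counts of the library after TMM scaling within each assay. A gene was called where edgeR's quasi-likelihood test gave a Benjamini-Hochberg adjusted p below 0.05 over all genes tested, and "rose" or "fell" is used of called genes alone. Of the 83 genes, 78 passed the filter on low counts in RNA and 78 in footprints. In the median gene of the set, the deposited values were whole numbers (within 1e-06) in 50% of the libraries, and the rest were fractions, as when a read that matches several loci, such as processed pseudogenes, is divided among them. This makes the levels of these genes uncertain, but the share of whole values does not tell what part of the counts was divided.

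Promoters of 5 genes on which the results below turn are shown first: Ndufa1, Sdhd, Uqcr11 and Uqcrfs1, which fell in day 9 footprints, and Ndufb11, which rose in day 13 footprints. Each is the 200 bases just before the annotated start of transcription, from RefSeq (GRCm38.p6), written 5′ to 3′ on the gene's own strand, which is the minus strand in all 5. They lie at chrX:37191239-37191438 (Ndufa1), chr9:50603850-50604049 (Sdhd), chr10:80406822-80407021 (Uqcr11), chr13:30545317-30545516 (Uqcrfs1) and chrX:20617620-20617819 (Ndufb11). Capitals mark matches to the motifs searched below.
Ndufa1: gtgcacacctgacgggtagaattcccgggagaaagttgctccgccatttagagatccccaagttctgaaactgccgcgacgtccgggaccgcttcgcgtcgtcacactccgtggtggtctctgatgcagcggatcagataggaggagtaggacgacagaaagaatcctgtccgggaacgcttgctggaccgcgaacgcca
Sdhd: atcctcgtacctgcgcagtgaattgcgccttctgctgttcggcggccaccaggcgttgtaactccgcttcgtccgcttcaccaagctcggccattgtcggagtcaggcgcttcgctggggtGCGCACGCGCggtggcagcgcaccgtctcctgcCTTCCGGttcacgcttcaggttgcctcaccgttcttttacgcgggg
Uqcr11: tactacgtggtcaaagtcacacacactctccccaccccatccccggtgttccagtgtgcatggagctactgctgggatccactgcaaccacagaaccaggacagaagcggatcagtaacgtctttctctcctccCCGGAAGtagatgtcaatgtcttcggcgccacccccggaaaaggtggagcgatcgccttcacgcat
Uqcrfs1: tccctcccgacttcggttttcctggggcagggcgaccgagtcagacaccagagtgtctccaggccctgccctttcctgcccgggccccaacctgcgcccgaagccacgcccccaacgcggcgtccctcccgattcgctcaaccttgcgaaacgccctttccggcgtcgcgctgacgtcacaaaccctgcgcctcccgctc
Ndufb11: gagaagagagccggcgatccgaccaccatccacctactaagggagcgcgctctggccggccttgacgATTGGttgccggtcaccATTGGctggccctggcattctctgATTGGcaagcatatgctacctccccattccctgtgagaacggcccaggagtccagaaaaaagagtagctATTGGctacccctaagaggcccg

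The 200 bases of Sdhd hold an NRF1 match and an ETS match that do not overlap, those of Uqcr11 hold an ETS match, and those of Ndufb11 hold 4 CCAAT matches, all read on the opposite strand as ATTGG. None of the motifs searched is in the 200 bases shown for Ndufa1 and Uqcrfs1. All 83 genes were found in the RefSeq gene table, 80 by symbol and 3 by synonym, and 69 have a promoter of 300 bases there (250 before the start and 50 after it). On both strands, counting each motif on its own whether or not it overlapped another, the NRF1 motif, GCGCA followed by N and GCGC, was in 16 of the 69 (23.2%, against 4.78% of 27025 promoters of all genes). CCGGAAG, the core bound by ETS factors such as GABP, was in 15 of them (21.7%, against 9.12%), and AAGATGGCG, bound by YY1, in 7 (10.1%, against 1.49%). GGGCGG (SP1) was in 28 (40.6%, against 35.9%), CCAAT in 31 (44.9%, against 37.9%) and TATAAA in 7 (10.1%, against 14.2%). The median GC content was 57.3% in the 69 promoters and 52.7% in all. A match is a description of these letters, not a bound site.

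At day 9 the RNA of nearly the whole set was slightly lower with Eif3m siRNA. Summed over the 83 genes, RNA stood at 10798, 10151 and 11555 CPM in the Eif3m livers, against 12688, 12517 and 12604 CPM in the controls. Every Eif3m liver was below every control liver. The log2 change was below 0 for 75 of the 78 tested genes, against 50.3% of all 16444 genes, and in 60 of them all 3 Eif3m livers were below all 3 controls (76.9%, against 20.3% of all genes). The median change of the set was -0.27, that of all genes was 0, and the difference of these medians was -0.26. A change of scaling alone shifts all genes by about the same amount, so it cannot test this difference. Library totals moved the median of the set to -0.13 and that of all genes to 0.12. In TMM-scaled CPM the sums of all 5 complexes were below the controls in every Eif3m liver, and the median changes were -0.21 for complex I, -0.29 for complex II, -0.33 for complex III, -0.29 for complex IV and -0.27 for complex V.

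**Figure D1:**
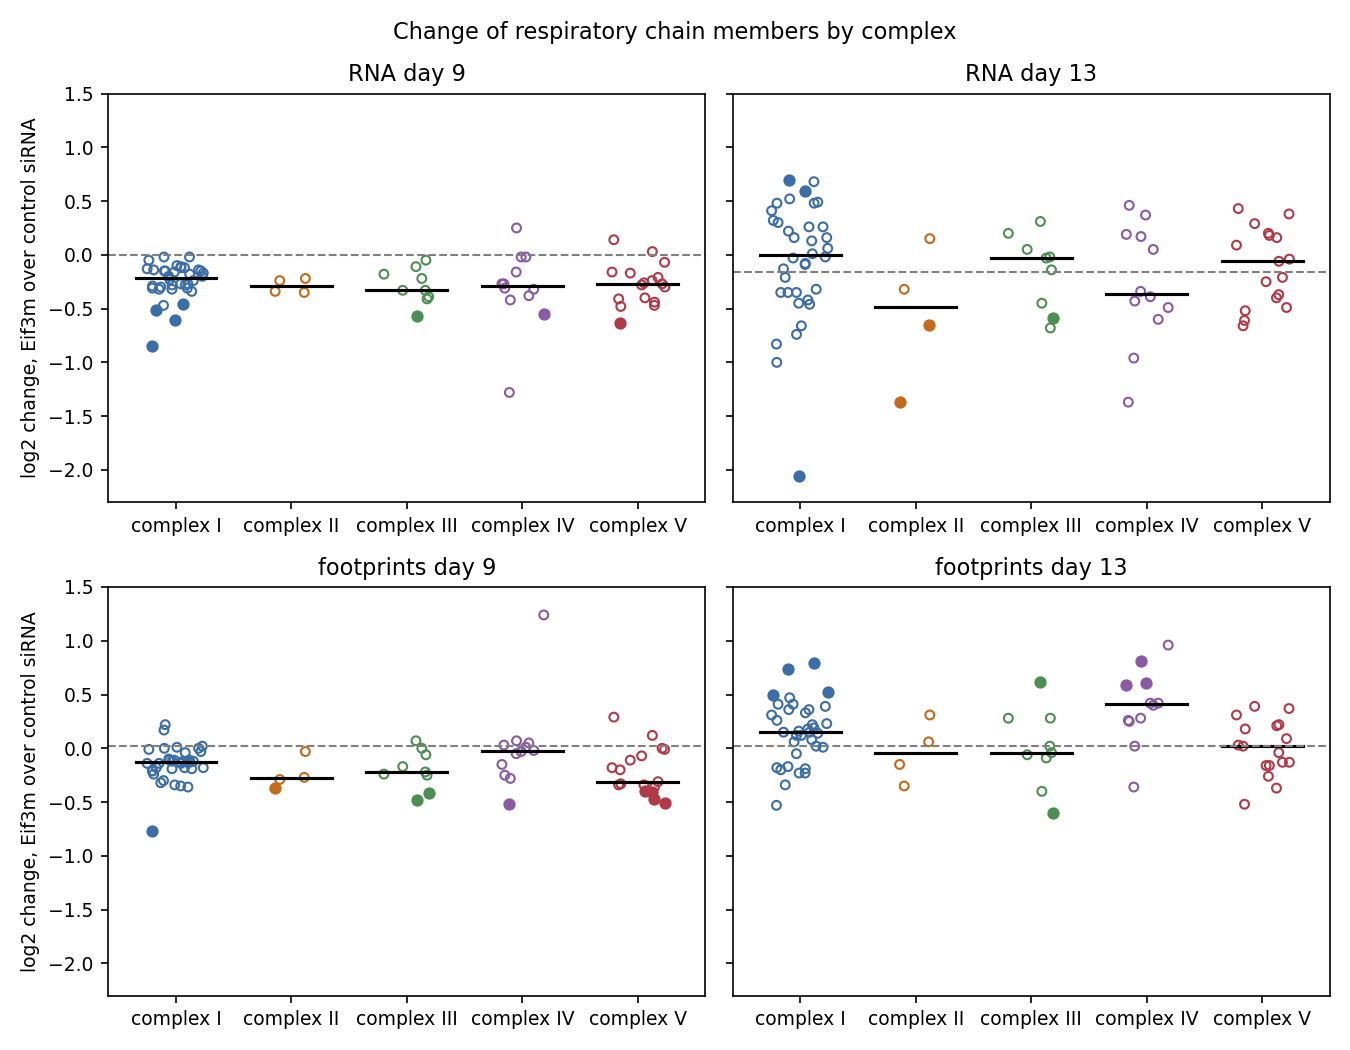
Each point is 1 gene's log2 change (Eif3m over control siRNA), by complex, for RNA and footprints at day 9 and day 13; filled points passed an adjusted p below 0.05, bars are the median of a complex and the dashed line is the median of all genes tested. Day 9 RNA points lie below 0 for 75 of 78 genes, while 11 of 12 complex IV genes lie above 0 in day 13 footprints; under library totals the median of the set turns positive in day 9 footprints (0.09) and day 13 RNA (0.15).

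By the test of single genes, 7 of 78 fell and 0 rose in day 9 RNA, where 5.67% of all genes were called, 3.19% as lower and 2.48% as higher. With library totals 2 fell and 0 rose (7.57% of all genes called), with DESeq2 14 fell and 0 rose (10% of all genes called), and 28 of the 78 had an unadjusted p below 0.05 (20.6% of all genes). Ndufa1, a small membrane-arm subunit that complex I needs for assembly, had 28.9, 23.7 and 30.8 CPM in Eif3m livers, against 47.7, 52.9 and 49.5 CPM in controls. The groups did not overlap, and its log2 change of -0.85 (SE 0.21, adjusted p = 0.031) was the lowest among the 7. Ndufa3, another membrane-arm accessory subunit, had 40.2, 36.4 and 43.7 CPM with Eif3m siRNA, against 59.7, 58.9 and 64.7 CPM in controls. Its log2 change was -0.61 (SE 0.15, adjusted p = 0.034). Ndufa4, classed by its symbol with complex I but found with complex IV in human cells, had 142, 124 and 147 CPM with Eif3m siRNA, against 195, 201 and 190 CPM in controls. The log2 change was -0.51 (SE 0.14, adjusted p = 0.048).

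Cox6c, a small subunit of complex IV, had 89.5, 76.9 and 95.6 CPM with Eif3m siRNA, against 127, 129 and 128 CPM in controls, a log2 change of -0.55 (SE 0.14, adjusted p = 0.037). Uqcr11, the smallest subunit of complex III, stood at 50.2, 41 and 53.2 CPM with Eif3m siRNA, against 67.7, 72.2 and 73.8 CPM in controls. This is a log2 change of -0.57 (SE 0.15, adjusted p = 0.049). The other genes that fell were Atp5sl at -0.63 and Ndufv3, an accessory subunit of the NADH-oxidising arm, at -0.46. In all 7 the libraries of the groups were apart, with no overlap. The calls rested on all of the day 9 libraries: 0 genes of the set were called when any 1 of the 6 was left out (1.8% to 2.99% of all genes), and 19 when either day 13 control was left out (13.6% and 13.7% of all genes), which enters through the shared spread. Fitted on day 9 alone, 41 genes fell and 1 rose, among 23.2% of all genes called.

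The core genes, which carry electrons or make ATP, did not pass the test in day 9 RNA. That test shares its spread with the day 13 libraries, and only 7 of the 78 genes fell in it. A difference between core and other subunits was not tested. Sdha, the flavoprotein of complex II, had 435, 401 and 429 CPM in Eif3m livers, against 477, 508 and 510 CPM in controls. On the log2 scale it changed by -0.24 (SE 0.12, adjusted p = 0.26). Among the core subunits of complex I, the log2 changes ran from -0.34 for Ndufs3 to -0.11 for Ndufs1, with Ndufv1, which binds NADH, at -0.15. Cyc1, cytochrome c1, had a change of -0.05 and Uqcrfs1, the Rieske iron-sulfur protein, one of -0.39. Atp5b, the catalytic beta subunit of ATP synthase, had overlapping groups, at 1494, 1480 and 1609 CPM with Eif3m siRNA and 1496, 1477 and 1521 CPM in controls. The fitted log2 change was 0.03 (SE 0.12, adjusted p = 0.94). Atp5a1, the alpha subunit beside it in the ring, had 933, 879 and 969 CPM with Eif3m siRNA, against 1114, 1078 and 1094 CPM in controls, with all 3 lower, but was not called (log2 -0.24, SE 0.14, adjusted p = 0.37). The single gene with all Eif3m livers above all controls, where 18.9% of all genes had this order, was Cox7a2l, which joins complexes III and IV into supercomplexes, at 51, 49.2 and 48.5 CPM with Eif3m siRNA and 39.7, 42.6 and 42.6 CPM in controls. Its log2 change was 0.25 (SE 0.14, adjusted p = 0.34).

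Markers of liver cell types differed between the same libraries. The 11 hepatocyte markers, of which 3 fell, summed to 117430 to 131309 CPM in day 9 Eif3m RNA and 164447 to 169054 CPM in day 9 control RNA, and none of them was at 0. Alb, not called in day 9 RNA, held most of these sums, at 85385 to 96433 CPM with Eif3m siRNA and 119285 to 127473 CPM in controls. It also held most of the footprint sums below. The median log2 change of the list in day 9 RNA was -0.32, against 0 for all genes. The 11 Kupffer cell and macrophage markers, of which 4 fell, summed to 234 to 283 CPM with Eif3m siRNA and 372 to 432 CPM in controls, and the 10 stellate cell and fibroblast markers to 226 to 274 CPM with Eif3m siRNA and 151 to 197 CPM in controls. The 11 markers of striated muscle and brown fat, tissues with dense mitochondria, summed to 3.87 to 4.47 CPM with Eif3m siRNA and 4.16 to 4.56 CPM in controls, with Myl2 and Ucp1 at 0 in both groups. In day 9 footprints the hepatocyte markers summed to 127720 to 152262 CPM with Eif3m siRNA and 201983 to 234105 CPM in controls, and in day 13 footprints to 139382 to 171542 CPM with Eif3m siRNA and 267460 to 270515 CPM in controls. The Kupffer cell markers summed to 431 to 473 CPM with Eif3m siRNA and 500 to 609 CPM in controls in day 9 footprints, and to 232 to 325 CPM with Eif3m siRNA and 492 to 559 CPM in controls in those of day 13. Stellate cell markers summed to 466 to 487 CPM with Eif3m siRNA and 339 to 352 CPM in controls in day 9 footprints, but to 424 to 499 CPM with Eif3m siRNA and 737 to 748 CPM in controls in day 13 footprints. In day 9 RNA 3.19% of all genes fell and 2.48% rose, and 1 of 9 tested stellate cell and 1 of 9 endothelial markers rose. In day 9 footprints 7.9% of all genes fell and 6.84% rose. There 5 of the 11 hepatocyte markers fell and 0 rose, and 3 of the 11 Kupffer cell markers fell and 1 rose. Of stellate cell markers 4 of 9 tested rose, and of endothelial markers 1 of 9. The Kupffer cell median there was -0.06, against 0.02 for all genes. In day 13 RNA, where 9.87% of all genes fell, 9 of the 11 Kupffer cell, 3 of the 11 hepatocyte, 4 of 9 tested stellate cell, 6 of 9 sinusoidal endothelial and 5 of 5 red cell markers fell. In day 13 footprints, where 6.26% of all genes fell, 6 of the 11 Kupffer cell and 4 of the 11 hepatocyte markers fell. So did 3 of 9 tested stellate cell, 0 of 9 endothelial and 1 of 5 red cell markers. In these lists 0 markers rose at day 13. Of tested cholangiocyte markers, 1 of 5 rose in day 13 RNA (6.09% of all genes) and 1 of 4 in day 13 footprints (6.12%). The median log2 change of the red cell markers was -2.13 in day 13 RNA and -1.84 in day 13 footprints. That of stellate cell markers was -1.05 in day 13 RNA and -0.28 in day 13 footprints, and that of endothelial markers -0.64 and -0.04. The part of cell composition in the changes of respiratory chain genes was not tested, and in bulk liver fewer cells of a type and less RNA per cell cannot be told apart.

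Ribosome footprints, which count the ribosomes on an mRNA, were also lower over the set at day 9 with TMM scaling, a direction that the median of the set does not keep with library totals. The 83 genes summed to 15929, 15691 and 16192 CPM in Eif3m livers, against 18227, 17823 and 17955 CPM in controls, with no overlap under TMM scaling. As a share of library totals they made up 1.74%, 1.78% and 1.71% in Eif3m livers and 1.72%, 1.68% and 1.63% in controls. These shares overlap and are not lower with Eif3m siRNA, so the lower sum depends on the scaling. The log2 change was below 0 for 65 of the 78 genes tested, against 48.4% of all 12213 genes, and in 25 of them (32.1%, against 16.3% of all genes) every Eif3m liver was below every control. The median of the set was -0.14 and that of all genes 0.02, a distance of -0.16, but with library totals these medians became 0.09 and 0.25. Scaling shifts all genes by about the same amount, so it cannot test the distance. By complex, the median change was -0.13 for complex I, -0.28 for complex II, -0.22 for complex III, -0.02 for complex IV and -0.31 for complex V.

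Single-gene tests gave 9 genes that fell and 0 that rose in day 9 footprints, where 14.7% of all genes were called, 7.9% as lower and 6.84% as higher. DESeq2 also gave 9 that fell and 0 that rose, and 22 of the 78 had an unadjusted p below 0.05 (28.8% of all genes). The share of all genes that DESeq2 called is not given here, so its count does not describe the set apart from all genes. With library totals alone the counts were 1 that fell and 4 that rose (22.5% of all genes called). Ndufa1 had 75.1, 54 and 57.7 CPM in Eif3m livers, against 101, 107 and 109 CPM in controls, a log2 change of -0.77 (SE 0.13, adjusted p = 0.00062), and it was called under all 17 alternatives. Cox6c had 127, 134 and 152 CPM with Eif3m siRNA, against 198, 178 and 214 CPM in controls (log2 -0.52, SE 0.13, adjusted p = 0.0078), and was called under 16 of 17, the exception being library totals. Uqcr11, whose promoter is printed above, had 150, 113 and 133 CPM with Eif3m siRNA, against 157, 200 and 196 CPM in controls. That is a log2 change of -0.48 (SE 0.14, adjusted p = 0.026). These 3 genes fell in RNA as well, which is 42.9% of the set's genes that fell in RNA and 33.3% of those that fell in footprints. Both assays used the same livers, and this overlap was not counted over all genes. The shares therefore do not describe the set apart from all genes.

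Complex V gave 4 of the 9. Atp5j, coupling factor 6 in the peripheral stalk, had 183, 203 and 242 CPM with Eif3m siRNA, against 263, 287 and 345 CPM in controls. This is a log2 change of -0.51 (SE 0.13, adjusted p = 0.012). Atp5j2, the f subunit in the membrane part, had 134, 159 and 164 CPM with Eif3m siRNA, against 209, 223 and 202 CPM in controls. On the log2 scale it changed by -0.47 (SE 0.12, adjusted p = 0.011). Atp5a1 stood at 1419, 1180 and 1334 CPM with Eif3m siRNA, against 1840, 1735 and 1643 CPM in controls (log2 -0.41, SE 0.12, adjusted p = 0.023), while its ring partner Atp5b overlapped between the groups, at 1555, 1752 and 1804 CPM with Eif3m siRNA and 1553, 1561 and 1593 CPM in controls. The fitted log2 change was 0.12 (SE 0.12, adjusted p = 0.54). The difference between the changes of these partner genes was not tested. Of the 3 genes for the c subunit, which encode the same mature protein in the rotor ring, Atp5g3 fell (log2 -0.40, SE 0.12, adjusted p = 0.024), Atp5g1 was at -0.34 (adjusted p = 0.062) and Atp5g2 at -0.01 (adjusted p = 0.96).

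Sdhd, a membrane anchor of complex II, had 170, 153 and 154 CPM in day 9 Eif3m footprints, against 197, 212 and 206 CPM in controls. Its log2 change was -0.37 (SE 0.11, adjusted p = 0.035), and the call was lost in 10 of 17 alternatives. Sdha and Sdhc, the other anchor, had all Eif3m livers lower too but were not called, at -0.29 and -0.27, and Sdhb, the iron-sulfur subunit, was at -0.03. Uqcrfs1 had 298, 301 and 325 CPM with Eif3m siRNA, against 399, 421 and 418 CPM in controls. The log2 change was -0.42 (SE 0.12, adjusted p = 0.019). In complex IV, Cox4i1 had 610, 447 and 471 CPM with Eif3m siRNA, against 568, 501 and 508 CPM in controls, and these overlapped (log2 -0.05, SE 0.13, adjusted p = 0.86). The number of genes called in day 9 footprints was 17 without Eif3m replicate 1 (18% of all genes), 4 without Eif3m replicate 2 (10.4%), 3 without control replicate 2 (9.27%) and 5 without control replicate 3 (11.4%).

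**Figure D2:**
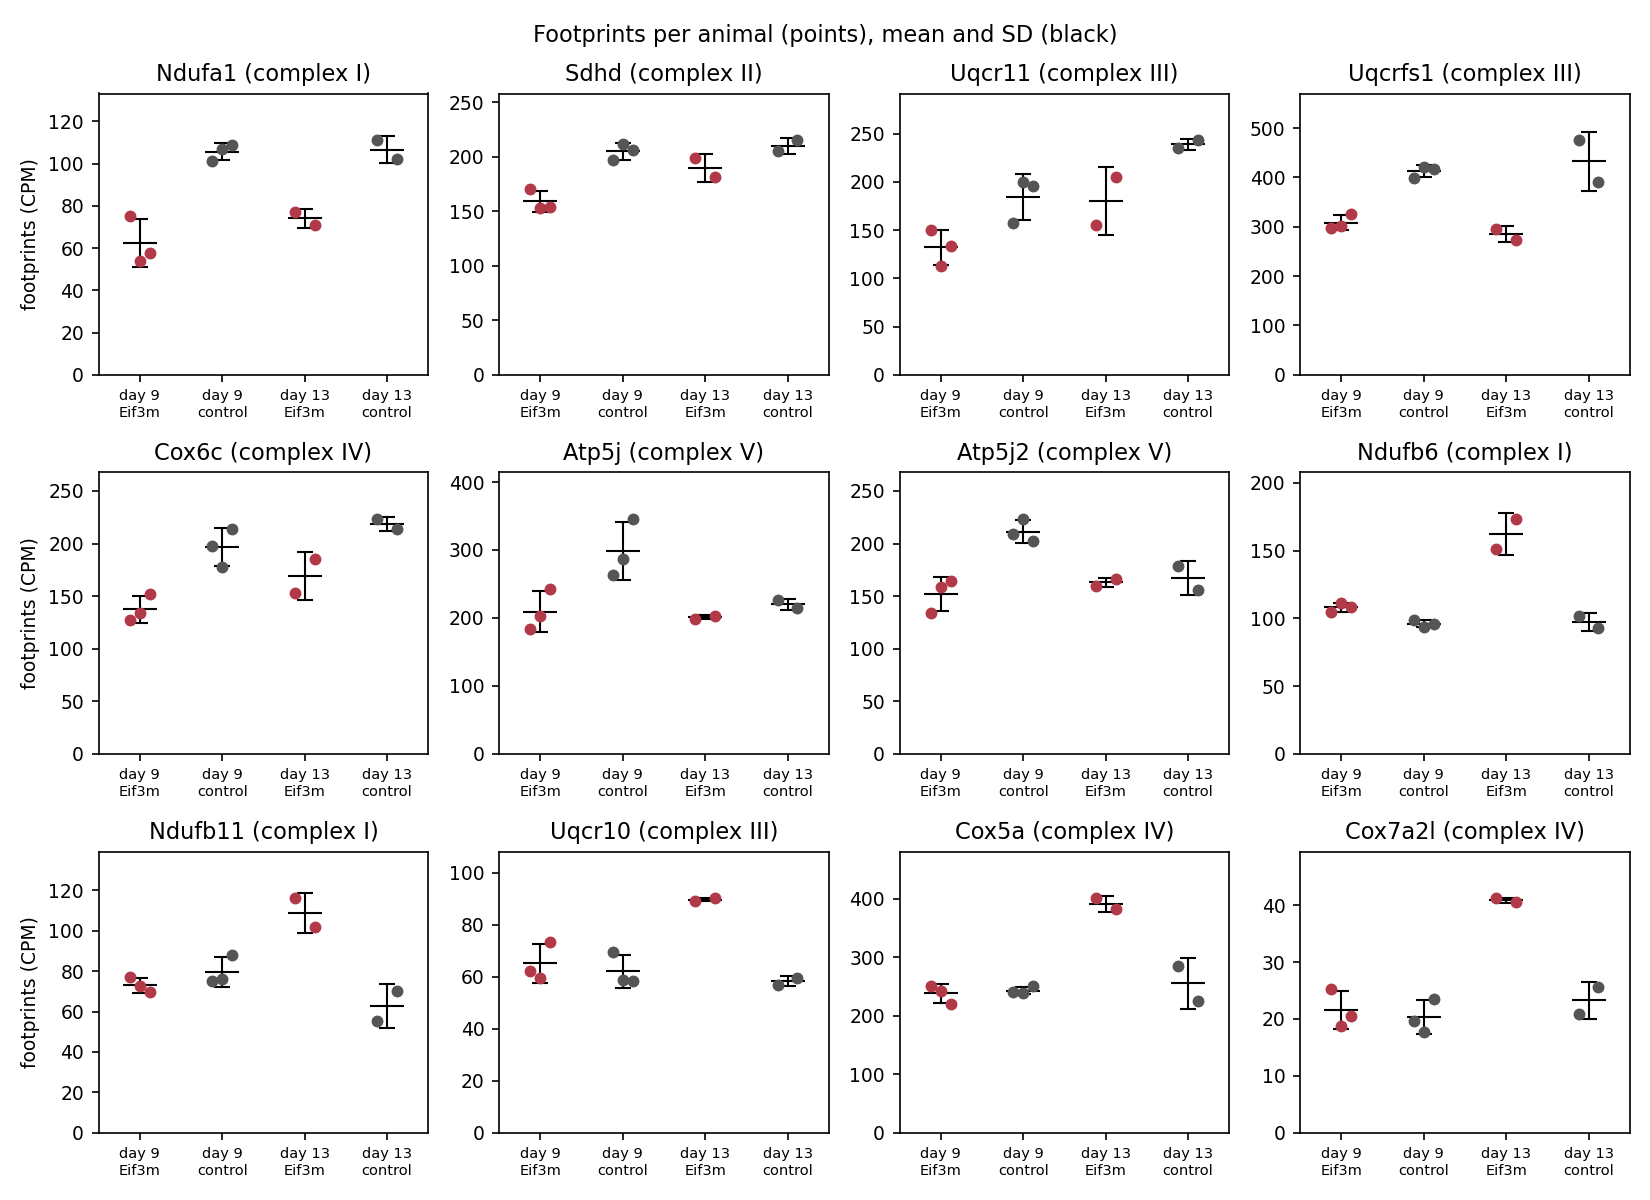
Footprints (CPM) of 12 genes in each liver, as points, with the mean and SD in black, for day 9 Eif3m siRNA and control livers (n = 3 each) and day 13 Eif3m siRNA and control livers (n = 2 each). Ndufa1 lies at 54 to 75.1 CPM in day 9 Eif3m livers and 101 to 109 CPM in day 9 controls, and Ndufb11 at 102 to 116 CPM in day 13 Eif3m livers and 55.1 to 70.3 CPM in day 13 controls.

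At day 13 the footprints of the set were no longer lower in sum with TMM scaling, and 8 genes rose. The 83 genes summed to 17198 and 17733 CPM in Eif3m livers, against 17570 and 16209 CPM in controls, and these overlap. As a share of library totals they made up 1.84% and 1.99% in Eif3m livers and 1.53% and 1.43% in controls. These shares are higher with Eif3m siRNA and do not overlap, so the order of the sums depends on the scaling. The log2 change was above 0 for 53 of the 78 genes, against 51.1% of all genes, and both Eif3m livers were above both controls in 39 of them (50%, against 28.1% of all genes). The median was 0.15 for the set and 0.02 for all genes, and with library totals these were 0.47 and 0.34. The median of the set was 0.07 without Eif3m replicate 2 (0 for all genes), 0.21 without Eif3m replicate 1 (0.02 for all genes) and 0.11 without control replicate 2 (0.03 for all genes). Complex IV stood highest: its sum was 2682 and 2752 CPM with Eif3m siRNA, against 2337 and 2091 CPM in controls, 11 of its 12 tested genes were above 0, and its median change was 0.41. The medians were 0.15 for complex I, -0.05 for complex II, -0.04 for complex III and 0.02 for complex V.

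By the test, 8 genes rose and 1 fell in day 13 footprints, where 12.4% of all genes were called, 6.12% as higher and 6.26% as lower. Ndufb11, a membrane-arm accessory subunit of complex I whose promoter is printed above, had 116 and 102 CPM with Eif3m siRNA, against 55.1 and 70.3 CPM in controls. This is a log2 change of 0.79 (SE 0.17, adjusted p = 0.0043). Without control replicate 1 this became 0.63 with an adjusted p of 0.09. Ndufb6, of the same arm, had 151 and 173 CPM with Eif3m siRNA, against 102 and 92.7 CPM in controls. On the log2 scale it changed by 0.74 (SE 0.15, adjusted p = 0.0025), and without Eif3m replicate 2 its adjusted p was 0.064. Ndufb8 (log2 0.52, SE 0.15, adjusted p = 0.024) and Ndufs4, an accessory subunit of the matrix arm (log2 0.50, SE 0.16, adjusted p = 0.044), rose as well, and the call of Ndufs4 was lost in 11 of 17 alternatives. Ndufs4 was also among the genes that fell in control footprints between the days, described below.

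In complex IV, 3 genes rose in day 13 footprints. Cox5a, a matrix-facing subunit, had 401 and 382 CPM with Eif3m siRNA, against 286 and 225 CPM in controls. The fitted log2 change was 0.61 (SE 0.15, adjusted p = 0.01). Cox7a2l had 41.2 and 40.5 CPM with Eif3m siRNA, against 20.9 and 25.6 CPM in controls. Its log2 change was 0.81 (SE 0.22, adjusted p = 0.02). Cox5b, at 127 and 125 CPM with Eif3m siRNA, against 93.4 and 74.6 CPM in controls, had a log2 change of 0.59 (SE 0.18, adjusted p = 0.04). Uqcr10, a small subunit of complex III, rose too, at 89.3 and 90.2 CPM with Eif3m siRNA and 56.9 and 59.7 CPM in controls. That is a log2 change of 0.62 (SE 0.17, adjusted p = 0.022). In each of these the Eif3m livers were above the controls with no overlap. Cox7a2l, Uqcr10 and Ndufb8 were not called when any 1 of the 4 day 13 libraries was left out, with adjusted p values of up to 0.19, 0.15 and 0.21.

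Uqcrfs1 went the other way and was the single gene of the set called in 3 of the 4 comparisons within a day and assay. Its day 13 footprints were 296 and 274 CPM with Eif3m siRNA, against 475 and 390 CPM in controls (log2 -0.60, SE 0.15, adjusted p = 0.0096), and its day 13 RNA was 168 and 123 CPM with Eif3m siRNA, against 199 and 240 CPM in controls. This is a log2 change of -0.59 (SE 0.17, adjusted p = 0.035). Its day 13 footprint change was -0.28 (adjusted p = 0.18) with library totals, -0.45 (adjusted p = 0.16) without control replicate 1 and -0.54 (adjusted p = 0.15) without Eif3m replicate 2. Ndufa1 was lower in both day 13 Eif3m livers, at 77.3 and 70.8 CPM against 111 and 102 CPM in controls, without passing the test (log2 -0.53, SE 0.17, adjusted p = 0.051). With 2 livers a group the counts of calls were unstable: of the set, 3 genes were called without Eif3m replicate 1 (8.21% of all genes), 1 without Eif3m replicate 2 (3.37%), 2 without control replicate 1 (5.43%), 3 without control replicate 2 (5.84%) and 14 without day 9 Eif3m replicate 1 (15.4%). With library totals alone 37 genes rose and 0 fell, among 19.3% of all genes called.

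In a test of whether the footprint change differed between the days, 68 of the 78 genes had a more positive change at day 13 than at day 9, against 51.5% of all genes, and the median difference was 0.26 for the set and 0.02 for all genes. Ndufb11 alone passed the test, where 0.819% of all genes did (day 13 minus day 9 change 0.92, SE 0.22, adjusted p = 0.049). This call was lost in 11 of 16 alternatives, among them DESeq2 size factors and the replicate block, with adjusted p values between 0.0065 and 0.28 over all 16. An unadjusted p below 0.05 was seen for 18 of the 78, against 12.2% of all genes. Among these were Ndufb8 at 0.70 (adjusted p = 0.096), Cox5a at 0.64 (adjusted p = 0.14), Cox5b at 0.74 (adjusted p = 0.16) and Ndufa6 at 0.65 (adjusted p = 0.14). Day cannot be told apart from an unlabelled run of libraries in this test.

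In controls, RNA levels of the set differed widely between day 13 and day 9, which also differ in library kit. Atp5d, the delta subunit in the central stalk of ATP synthase, had 4.38 and 2.81 CPM in day 13 control RNA, against 181, 169 and 170 CPM in day 9 control RNA, while its control footprints were 506 and 458 CPM at day 13 and 444, 470 and 395 CPM at day 9. Ndufs7, an iron-sulfur subunit of the complex I core, had 1.05 and 0.435 CPM in day 13 control RNA, against 75.1, 73.8 and 74.3 CPM at day 9. Among the 76 genes of the set whose day 9 control means reached 10 CPM in both assays, 26 (34.2%) were at least 4-fold lower in day 13 control RNA and 8 (10.5%) at least 16-fold lower, against 20.2% and 3.26% of 5854 genes chosen in the same way. The largest gain was that of Cox5a, with 714 and 923 CPM in day 13 control RNA and 170, 171 and 179 CPM at day 9. The median log2 change of control RNA between the days was -1.45 for the set and -0.32 for all genes, whereas control footprints had a median of -0.04 and stayed between -0.70 and 0.63, with 0 of 76 beyond 2-fold. All 5854 genes had a footprint median of -0.06, and 4.48% of them were beyond 2-fold.

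**Figure D3:**
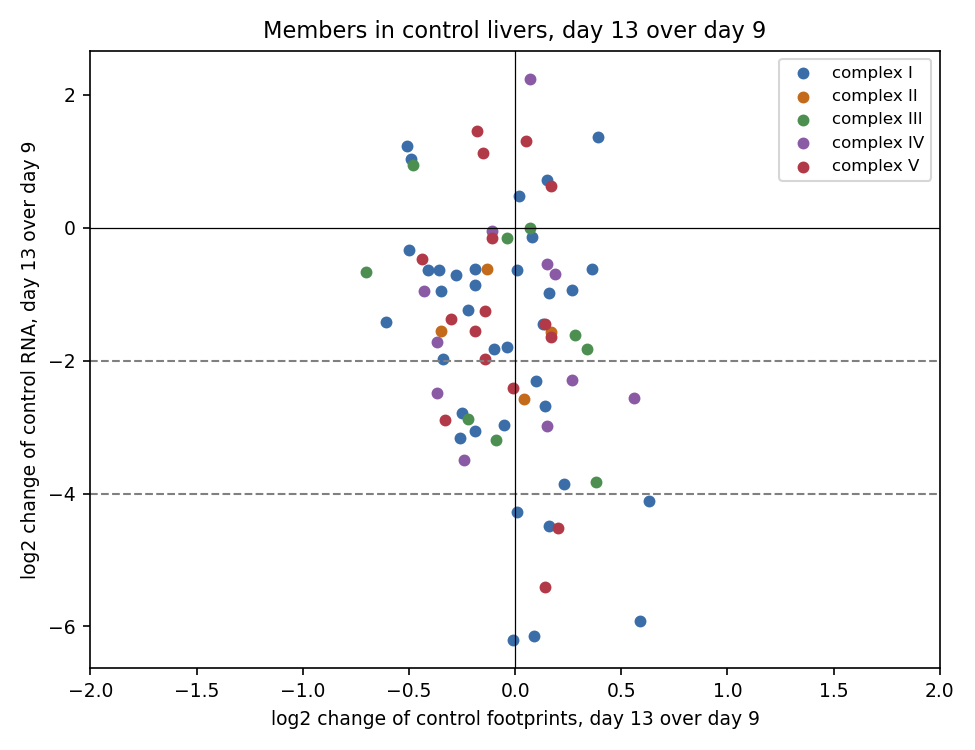
Each point is 1 of 76 genes in control livers, with the log2 change of footprints (day 13 over day 9) on the horizontal axis and that of RNA on the vertical axis; dashed lines mark 4-fold and 16-fold lower RNA. Footprints stay between -0.70 and 0.63, while RNA of 26 genes lies below the upper dashed line and that of 8 below the lower one.

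Control footprints themselves differed between the days for 9 of 78 genes, 6 lower and 3 higher at day 13, where 10.3% of all genes were called, 4.88% as lower and 5.47% as higher. Uqcrb, a ubiquinone-site subunit of complex III, fell by 0.71 on the log2 scale at day 13 (SE 0.18, adjusted p = 0.019), followed by Ndufb9 at -0.61, Ndufa4 at -0.51, Ndufs4 at -0.50, Ndufs1 at -0.49 and Uqcrc2, a core protein of complex III, at -0.48. Ndufa3 rose by 0.64, Ndufs7 by 0.59 and Cox6a1 by 0.56. These control libraries also enter the comparisons with Eif3m siRNA above. A difference between the days in these footprints cannot be told apart from one between unlabelled runs of libraries. The number called was 1 without day 13 control replicate 1 (3.85% of all genes) and 0 without day 13 control replicate 2 (2.52%). It was 0 without day 9 control replicate 1 (6.41%), 4 without day 9 control replicate 2 (6.56%) and 5 without day 9 control replicate 3 (9.3%).

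Within day 13, where both siRNA groups share the NeoPrep kit, RNA of the set was divided. The 83 genes summed to 10455 and 9150 CPM in Eif3m livers, against 9300 and 10324 CPM in controls, and these overlap. As a share of library totals they made up 0.896% and 0.981% in Eif3m livers and 0.741% and 0.878% in controls, which do not overlap. The median change was -0.05, against -0.16 for all genes. With library totals these were 0.15 and 0, so the sign of the median depends on the scaling. In this comparison 4 of 78 genes fell and 2 rose, where 16% of all genes were called, 9.87% as lower and 6.09% as higher. Both Eif3m livers were below both controls in 21 genes (29.1% of all genes) and above both in 12 (18% of all genes). The median changes were 0 for complex I, -0.48 for complex II, -0.03 for complex III, -0.36 for complex IV and -0.06 for complex V. Complex IV, whose footprints had the highest median of the 5 at day 13, had 7 of 12 genes below 0 in RNA, with 0 called.

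The 2 genes that rose encode membrane-arm subunits of complex I. Ndufb9 had 119 and 133 CPM in day 13 Eif3m RNA, against 68.2 and 86.8 CPM in controls (log2 0.70, SE 0.16, adjusted p = 0.012), and Ndufb10 had 54.3 and 64.1 CPM with Eif3m siRNA, against 39.4 and 38.9 CPM in controls. On the log2 scale it changed by 0.59 (SE 0.15, adjusted p = 0.019). Ndufb9 was called under 16 of 17 alternatives and Ndufb10 under 15, and neither without Eif3m replicate 2. Ndufa3 had the largest fall, at 0.588 and 1.13 CPM with Eif3m siRNA and 3.71 and 2.42 CPM in controls (log2 -2.06, SE 0.35, adjusted p = 0.0023), but with the NeoPrep kit its RNA was at least 16-fold below day 9 in the controls, and its day 13 footprints, 90.5 and 88.6 CPM with Eif3m siRNA against 109 and 101 CPM in controls, were not called (log2 -0.23, SE 0.18, adjusted p = 0.46).

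Sdhd RNA rested on 1 control liver: it had 5.29 and 5.26 CPM with Eif3m siRNA, against 20.6 and 6.63 CPM in controls (log2 -1.37, SE 0.40, adjusted p = 0.037), and without control replicate 1 the change was -0.33 (adjusted p = 0.27). Sdhc, its partner in the membrane, had 21.9 and 22.5 CPM with Eif3m siRNA, against 41.8 and 27.8 CPM in controls. The fitted log2 change was -0.65 (SE 0.19, adjusted p = 0.037), and the call was lost in 13 of 17 alternatives, as that of Uqcrfs1 RNA was in 12. The set had 25 calls without day 13 control replicate 2 (24.7% of all genes), 11 without day 13 control replicate 1 (15.9% of all genes) and 1 without day 13 Eif3m replicate 2 (7.72% of all genes). It had 3 without day 9 control replicate 2 or day 9 Eif3m replicate 1 or 3 (12.6% to 13.1% of all genes), and 1 fitted on day 13 alone (7.1% of all genes). The RNA change was more positive at day 13 than at day 9 for 56 of the 78 genes (71.8%, against 41% of all genes), with a median difference of 0.18 for the set and -0.14 for all genes. The distance of the set from all genes was thus 0.33 in RNA and 0.24 in footprints. By complex, the RNA medians of this difference were 0.21 for complex I, -0.19 for II, 0.28 for III, 0.03 for IV and 0.14 for V. Single RNA changes differed between the days for 0 of 78 genes with edgeR, where 1.23% of all genes were called, with 10 below an unadjusted p of 0.05 (17.8% of all genes) and 5 called by DESeq2 (4.46% of all genes). Without day 13 control replicate 2 the number was 18 (12% of all genes), and without day 13 control replicate 1 it was 3 (3.96% of all genes).

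Translational efficiency, the footprint change minus the RNA change, was called for 0 of 78 genes at day 9, where 0% of all 14236 genes were called by edgeR. An unadjusted p below 0.05 was seen for 1 of the 78 (4.86% of all genes) and DESeq2 called 0. For efficiency the share of all genes that DESeq2 called is not given, so its counts do not describe the set apart. The median efficiency change at day 9 was 0.08 for the set and 0.03 for all genes, and 54 of the 78 were above 0 (53.9% of all genes). At day 13 it was again called for 0 of 78, where 0.0211% of all genes were called, with 14 below an unadjusted p of 0.05 (10% of all genes) and 0 by DESeq2. The median was 0.09 for the set and 0.13 for all genes. It was 0.22 for the set and 0.10 for all genes without the animal of control replicate 1, and 0.13 for the set and 0.30 for all genes without that of control replicate 2, so the order of the set and all genes depends on 1 animal. Ndufa3 came nearest, at 1.76 (SE 0.39, adjusted p = 0.1), with RNA of 0.588 to 3.71 CPM in the day 13 libraries, followed by Cox7a2 at 0.72 (SE 0.23, adjusted p = 0.27) and Cyc1 at 0.87 (SE 0.28, adjusted p = 0.28). The difference of efficiency changes between the days was called for 0 of 78, where 0% of all genes were called, with 5 below an unadjusted p of 0.05 (5.37% of all genes) and 0 by DESeq2. Without the animal of day 13 control replicate 2, 8 genes of the set were called at day 13 (2.94% of all genes) and 1 in the difference between days (0.397% of all genes).

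The ratio of footprint CPM to RNA CPM (each plus 0.5) describes how densely an mRNA was occupied relative to other genes, and day 9, with its RNA at higher levels, allows it for 76 of the set. RNA reads cover untranslated parts as well, and coding lengths were not used. In day 9 controls, the median ratio was 1.32 for the set and 1.03 for all 5854 genes, and 62 of the 76 were above the median of all. The ratio was 4.41 for Atp5e, the epsilon subunit of ATP synthase, at the 99.7th percentile of all genes, 3.55 for Ndufa4 and 2.90 for Atp5g3. At the low end stood Cox7a2l at 0.493, the 10th percentile, Atp5sl at 0.517 and Uqcrh, the hinge subunit of complex III, at 0.652. Atp5e had ratios of 5.62, 5 and 4.18 in Eif3m livers and 5.12, 4.06 and 4.13 in controls, and Cox7a2l had 0.5, 0.387 and 0.431 in Eif3m livers and 0.503, 0.424 and 0.56 in controls. Both overlap between the groups. By complex, the median ratio in controls was 1.22 for I, 1.86 for II, 1.32 for III, 1.4 for IV and 1.53 for V.

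**Figure D4:**
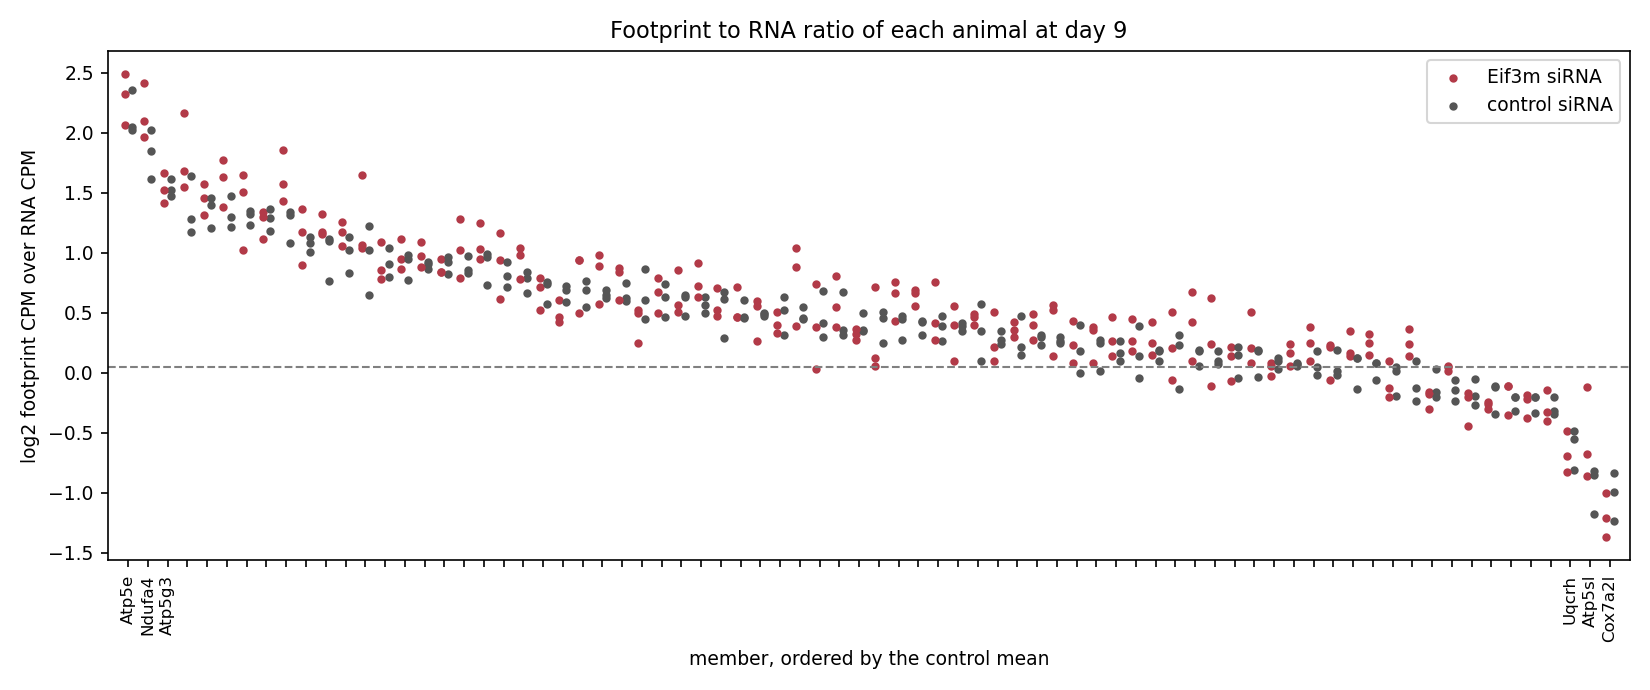
The log2 ratio of footprint CPM to RNA CPM of 76 genes in each day 9 liver, Eif3m siRNA left and control right of each tick, ordered by the control mean, with names at the 3 highest and 3 lowest; the dashed line is the median of all genes in controls. Atp5e and Ndufa4 stand at the top and Cox7a2l at the bottom in both groups, while 1 Eif3m liver has Atp5sl above its other livers.

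Muscle and testis isoforms were at or near 0. Cox6a1, the general form of subunit 6a, had 112, 101 and 118 CPM in day 9 Eif3m RNA and 143, 137 and 134 CPM in controls, while Cox6a2, its heart and muscle form, was at most 0.0967 CPM in any library of that day. Cox7a1, another heart and muscle form, had 0.145, 0.195 and 0.313 CPM with Eif3m siRNA and 0.631, 0.565 and 0.401 CPM in controls (log2 -1.28, SE 0.51, adjusted p = 0.17), on 6 to 22 counts a library, while Cox7a2 was at 88.1 to 110 CPM with Eif3m siRNA and 98.1 to 103 CPM in controls. Cox7b2 and Cox8c, known from testis in human, had 0 counts in all 20 libraries, and Cox8b at most 2. Cox6b2, the testis form of subunit 6b, had 5.7, 3.2 and 1.85 CPM in day 9 Eif3m footprints, against 0.903, 1.38 and 2.09 CPM in controls, and was not called (adjusted p = 0.066). The 5 genes below the filter in RNA were Cox6a2, Cox6b2, Cox7b2, Cox8b and Cox8c, and in footprints Cox7a1 took the place of Cox6b2.

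Other mitochondrial genes were counted in lists chosen by function. Of 15 complex I assembly factors, 0 rose and 1 fell in day 9 RNA (2.48% and 3.19% of all genes), 0 rose and 1 fell in day 9 footprints (6.84% and 7.9% of all genes), and 2 rose and 1 fell in day 13 footprints (6.12% and 6.26% of all genes). Ndufaf1, which acts on the membrane arm, fell in day 9 RNA (log2 -0.80, SE 0.17, adjusted p = 0.015) and in day 9 footprints (log2 -1.0, SE 0.15, adjusted p = 0.00018). Acad9, its partner in assembly, fell in day 13 RNA at -0.86 and in day 13 footprints at -0.83, where Ndufaf4 rose at 1.25. Of 36 assembly factors of complexes II to V, 1 rose and 1 fell in day 9 RNA (2.48% and 3.19% of all genes). These were Lrpprc, which stabilises mitochondrial mRNAs, at 0.71 and Sco2, a copper chaperone of complex IV, at -0.89. In day 9 footprints 2 of 35 tested rose, with Lrpprc at 0.60, and 2 fell (6.84% and 7.9% of all genes). In day 13 RNA 2 rose and 0 fell (6.09% and 9.87%), Coa4 at 2.22 (SE 0.69) and Lrpprc at 0.96. In day 13 footprints 1 of 35 rose and 0 fell (6.12% and 6.26%), Ttc19 at 1.0. Of the 19 genes of electron carriers and coenzyme Q synthesis, Adck3 (also named Coq8a) fell in all 4 comparisons, at -1.41 and -1.36 in RNA and -1.38 and -0.79 in footprints at day 9 and day 13.

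Of the 17 genes of the citric acid cycle, 1 rose and 3 fell in day 9 footprints (6.84% and 7.9% of all genes). In day 13 footprints 2 rose and 2 fell (6.12% and 6.26% of all genes). Suclg2, the GDP-forming succinyl-CoA ligase subunit, fell in all 4 comparisons, by 1.22 on the log2 scale in day 13 RNA (SE 0.16, adjusted p = 0.00044). Of 22 import genes, which bring these subunits into mitochondria, 3 rose and 0 fell in day 9 footprints (6.84% and 7.9% of all genes). In day 13 footprints 6 rose and 0 fell (6.12% and 6.26% of all genes). The list medians were 0.13 and 0.49, against 0.02 for all genes on both days. Hspa9, the matrix chaperone that pulls proteins in, rose in all 4 comparisons, with log2 changes between 0.82 and 1.43. Of 14 regulators, 1 rose and 1 fell in day 9 footprints, near the shares of all genes (6.84% and 7.9%). In RNA 0 of them were called at day 9 or day 13 (5.67% and 16% of all genes). Pprc1, a relative of PGC-1alpha, was the 1 that rose in day 9 footprints (log2 2.01, SE 0.25, adjusted p = 2.2e-05). Ppargc1a, a coactivator of mitochondrial genes, was the 1 that fell there (log2 -1.06, SE 0.27, adjusted p = 0.01).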

How the data were processed

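RNA and ribosome footprint libraries of 10 livers were analysed from 1 table of 38784 gene symbols and 20 libraries. Its values are the authors' expected counts per gene. Bowtie, Bowtie2 and cutadapt are named, per the submitters' processing notes; for versions, build and counting rule, nothing is given in these sources. Of nonzero values, 44.3% are over 1e-06 from a whole number. Counts were rounded and fitted in R 4.3.3 with edgeR 4.0.16: filterByExpr, TMM within each assay, and the robust two-sided quasi-likelihood F test, with 1 spread for both days of an assay. Efficiency was fitted in 1 model over the 20 libraries. P-values were adjusted over all genes by Benjamini-Hochberg, with a threshold of 0.05. CPM values use the TMM-scaled library size, and 0.5 was added in ratios. DESeq2 1.42.0 was an alternative. The fits were tested on simulated data.

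Groups came from the labels, and each library is titled by its own animal. Pairs of replicates had a Pearson r across genes of 0.96 to 0.996 and a chi-square per gene of 3.37 to 80.7, beyond sampling noise, so none was counted as a duplicate. RNA and footprint libraries of the same animal are paired by the titles; their deviations from the group means had r of 0.07 to 0.29, and a fit with the animal as a block also called 0 efficiency changes in the set. The replicate numbers shared by Eif3m and control livers do not pair them. No column of another sample is in the table (0).

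The genes and lists were chosen with earlier results of these data known. Named are genes called within a day, the most abundant gene of each complex in day 9 control footprints, tissue isoforms and core subunits, of which some are not reported here; from other lists, up to 3 called genes with the largest change. Genes outside this rule were named after their values were seen. Promoters came from RefSeq. Counting error alone limits low values: genes at a few counts in the smaller day 13 libraries carry little information. Coding lengths were not used, so CPM levels and footprint-to-RNA ratios set between genes, including the choice of the most abundant gene of a complex, are not per length.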

Additional observations from a re-analysis of the deposited data

Results flagged for a closer look

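The footprint change of Ndufb11 differed between the days by the test of that difference: day 13 minus day 9 was 0.92 on the log2 scale (SE 0.22, adjusted p = 0.049). Its footprints were 116 and 102 CPM in day 13 Eif3m livers, against 55.1 and 70.3 CPM in day 13 controls, and 76.9, 72.6 and 69.6 CPM in day 9 Eif3m livers, against 74.9, 76.1 and 88.2 CPM in day 9 controls. The adjusted p lay between 0.0065 and 0.28 over 16 alternatives and was above 0.05 in 11 of them.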

How the results depend on the processing

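No called gene of the set changed direction under any alternative that was run. The share of all genes called also changed with the alternative and is given above for some of them alone. The counts below therefore do not describe the set apart from all genes. Genes of the set called in day 9 RNA were 7, but 2 with library totals, 14 with DESeq2, 1 with the replicate block, 42 with the day fitted alone and 0 to 19 with 1 library left out. In day 13 RNA they were 6, but 13 without the low-count filter, 13 with DESeq2, 1 with the day alone and 1 to 25 with 1 library left out; in the RNA day difference 0, but 4 without the filter, 1 under a filter of 5 CPM, 5 with DESeq2 and 0 to 18. In day 9 footprints they were 9, but 5 with library totals and 3 to 17 with 1 library left out; in day 13 footprints 9, but 37 and 1 to 14; in the footprint day difference 1, but 0 with DESeq2 size factors, 2 without the filter, 0 with the replicate block and 0 to 1. For day 13 efficiency they were 0, but 1 with library totals, 4 without the filter and 0 to 8 with 1 animal left out, for its day difference 0 to 1, and for control footprints between days 9, but 0 to 12.

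Medians with library totals were -0.13 (RNA day 9), 0.15 (RNA day 13), 0.09 and 0.47 (footprints), 0.35 (footprint day difference), 0.19 and 0.28 (efficiency). That of day 13 RNA, -0.05, was 0.06 with day 13 fitted alone, 0.05 under the filter of 5 CPM, by DESeq2 and with its size factors, and -0.12 to 0.03 with 1 library left out. The RNA day difference was 0.28 with DESeq2 size factors, 0.29 with DESeq2 and 0.12 to 0.32 with 1 library left out. Day 13 efficiency was 0.20 without the filter, 0.17 with TMM over all libraries and 0.09 to 0.23 with 1 animal left out, and its day difference 0.22 without the filter and 0.03 to 0.20. The causes of these shifts were not tested. Relative to all genes, library totals left the medians within 0.04 of the values reported. This is no check on them, because scaling shifts all genes by about the same amount.

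The replicate numbers of Eif3m and control livers do not pair them (r of their deviations -0.11 to 0.22); the block left 4 and 8 calls in day 13 RNA and day 9 footprints and 7 in day 13 footprints. Restricting the set to genes with whole counts in 95% of libraries was not run, because it leaves 1 tested gene in RNA and 0 in footprints. Day 13 had 2 livers a group and as few as 1635290 footprint counts in a library.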
